A study of Mus musculus with 27 samples.

Results

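Stretches of the genome that carry H3K27me3 but hardly any H3K4me3 were examined in fPSCs (formative pluripotent stem cells, mouse cells kept between the naive and the primed state) at passage 10. The autosomes of mm9 were divided into 1-kb bins, and a bin was taken when its mean H3K27me3 was at least 2 RPKM (reads per kilobase, scaled to the reads of the file) and its mean H3K4me3 was below 0.5 RPKM. Bins with a value over 100 in any 100-bp window of either mark were left out (91 bins). The rule gave 9593 of 2472335 autosomal bins, called H3K27me3-only bins here, and 4 of them hold unassembled bases. The other 9589 (9.59 Mb, 0.401% of the 2393223 assembled bins) are described below. The values of both marks chose the bins, so they are given as a description, without a test. DNA methylation, base composition, position and expression did not enter the rule, though expression in fPSCs is not independent of the marks.

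The study asked how the chromatin of fPSCs at passage 10 is arranged and how their expression compares with other pluripotent cells. ChIP-seq of H3K4me3 (antibody made in the laboratory) and H3K27me3 (Diagenode antibody) and bisulfite sequencing were used with 1 file each. The labels do not name the cell line of these samples, and the methods combine ChIP-seq replicates for later analysis. With 1 file for each mark and 1 for methylation there is no replicate error here. RNA-seq came from 19 libraries. All samples are labelled WT. mESCs (2 libraries) were kept without feeders in N2B27 with 1 uM PD035901, 3 uM Chir99021 and 1000 units/ml hLIF. All other cells received Activin A (20 ng/ml) with bFgf2 (12 ng/ml) in N2B27. To this, EpiLCs (2) had KSR added at 1%, EpiSCs (2) had KSR at 15% and XAV939 at 5 uM on inactivated mouse embryonic fibroblasts, and fPSCs had XAV939 at 5 uM without KSR. Epiblastoids (1 library each of days 2, 3 and 4) were grown without XAV939 and had KSR at 1% like EpiLCs. The paper describes Epiblastoids as polarized spheres with a lumen, formed from mESCs. For the last of these days it describes irregular colonies instead, which had lost polarity and had induced markers of epithelial-to-mesenchymal transition. The long-term fPSCs are 7 libraries, each of another passage or line. CMT at P10, P20 and P30 were deposited with mESCs, EpiLCs and EpiSCs, while BVSC at P14, ROSAmT/mG at P12, CMT at P11 and 46C at P24 formed a second batch, whose labels write the inhibitor doses in mM. In the 7 fPSC libraries, the pluripotency gene Pou5f1 and the formative genes Otx2, Fgf5 and Dnmt3b summed to 1026 to 1783 FPKM. FPKM are fragments for each kilobase of a transcript, scaled to the depth of the library. In mESCs that sum was 791, most of it Pou5f1 (760 to 764, against 462 to 1025 in fPSCs). The sum of 4 naive genes (Zfp42, Klf4, Esrrb, Tbx3) was 0.470 to 1.09 in fPSCs, against 610 to 742 in mESCs.

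Polycomb repressive complex PRC2 places H3K27me3 on the chromatin of genes that are held silent, often at CpG islands. In pluripotent cells many developmental regulators carry it together with H3K4me3, the mark of promoters, a state called bivalent. CpG islands are normally free of DNA methylation, whereas most CpG sites elsewhere in the mammalian genome are methylated.

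The following 4 bins show the range of sequence that the rule picked up. They are the strongest by H3K27me3 among bins with low (under 0.2) and among bins with high methylation (over 0.8), off the chromosome whose sequence is not printed and away from UTRs. The 300 bp of each with the most H3K27me3 are printed from the mm9 assembly, plus strand, 5' to 3', with every CpG in capitals. The first, chr11:96208101-96208400, lies between genes, 3.42 kb from the start of Hoxb3, a homeobox gene of the anterior body axis. The second, chr3:99040501-99040800, is in an intron of Wars2, 17.2 kb from the start of Tbx15, a T-box factor of skeleton and skin. Then come chr19:46220101-46220400, in an intron of Pitx3, a homeobox gene of lens and dopamine neurons, and chr8:12381601-12381900, 4.27 kb from the start of Gm5607.
Hoxb3, low methylation: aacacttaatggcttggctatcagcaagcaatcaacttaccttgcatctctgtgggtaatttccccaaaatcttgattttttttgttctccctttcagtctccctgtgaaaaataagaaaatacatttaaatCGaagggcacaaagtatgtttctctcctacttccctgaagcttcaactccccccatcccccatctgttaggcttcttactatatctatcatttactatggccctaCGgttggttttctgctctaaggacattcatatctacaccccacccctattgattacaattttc
Wars2 and Tbx15, low methylation: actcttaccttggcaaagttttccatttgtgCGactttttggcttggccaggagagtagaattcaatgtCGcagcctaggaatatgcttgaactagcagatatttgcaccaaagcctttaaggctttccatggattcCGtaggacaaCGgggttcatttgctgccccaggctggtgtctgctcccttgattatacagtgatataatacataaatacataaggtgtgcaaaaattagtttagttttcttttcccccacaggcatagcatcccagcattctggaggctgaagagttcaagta
Pitx3, high methylation: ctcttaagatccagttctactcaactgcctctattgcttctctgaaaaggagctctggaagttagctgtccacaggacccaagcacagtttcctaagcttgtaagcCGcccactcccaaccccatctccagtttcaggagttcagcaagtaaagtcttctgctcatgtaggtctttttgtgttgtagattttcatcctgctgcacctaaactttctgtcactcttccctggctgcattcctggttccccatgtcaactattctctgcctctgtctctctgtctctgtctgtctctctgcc
Gm5607, high methylation: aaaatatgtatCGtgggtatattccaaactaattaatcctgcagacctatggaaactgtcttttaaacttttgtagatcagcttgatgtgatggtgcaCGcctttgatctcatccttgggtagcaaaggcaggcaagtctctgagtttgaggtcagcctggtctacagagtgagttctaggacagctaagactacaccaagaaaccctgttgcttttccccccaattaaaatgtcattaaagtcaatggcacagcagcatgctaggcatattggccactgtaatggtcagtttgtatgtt
The bin near Hoxb3 had 5.80 RPKM of H3K27me3 (90 reads) and a methylation of 0.123 over 6 windows. The Wars2 bin had 5.48 RPKM (85 reads) and 0.0250 over 6 windows. The Pitx3 bin had 7.54 RPKM (117 reads) and 0.886 over 5 windows, and the Gm5607 bin 7.09 RPKM (110 reads) and 0.912 over 5 windows. None of the 4 stretches is rich in CpG, with 2, 4, 1 and 2 sites at a GC content of 40%, 43.3%, 48.0% and 42.3%. All 4 bins lie 1 kb from a bin with both marks.

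H3K27me3 in the 9589 bins had a median of 2.45 RPKM, with quartiles of 2.19 and 2.90 and a maximum of 8.06, beside 0.257 over all assembled bins. H3K4me3 had a median of 0.248 RPKM. In bins with both marks at 2 RPKM or more (9206 bins, called bivalent here) the medians were 3.42 and 3.73 RPKM. The values are whole multiples of 1 read, from which about 15500000 reads of H3K27me3 and 8000000 of H3K4me3 were recovered. A bin inside the rule therefore had at least 32 reads of H3K27me3 (exact 95% Poisson interval of 32 reads, 1.41 to 2.91 RPKM) and at most 4 reads of H3K4me3 (interval of 4 reads, 0.136 to 1.27 RPKM). These intervals cover counting error only. At this depth the bins near both limits are not separated from their neighbours outside. At the limit, 1060 bins had 32 reads of H3K27me3 and 1262 bins had 31, and both had a median methylation of 0.904. For H3K4me3, 2162 bins had 4 reads and 1826 had 5, with medians of 0.898 and 0.900.

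The H3K27me3-only bins were highly methylated in fPSCs, whereas bivalent bins largely were not. A bin was given a methylation level where at least 3 of its 10 windows of 100 bp had a value, which held for 8271 bins (86.3%). Their median was 0.901 (quartiles 0.843 and 0.938), beside 0.213 (0.0417 and 0.568) in bivalent bins and 0.920 over all bins. Only 8 of the 8271 were under 0.2, a share of 0.0967%, against 48.8% of bivalent and 1.35% of all bins. Over 0.8 lay 7020 bins (84.9%), against 12.2% of bivalent and 85.4% of all bins. In bins with H3K27me3 of at least 2 RPKM and H3K4me3 between the limits (0.5 to 2 RPKM, 11811 bins) the median was 0.863, and 3.79% were under 0.2. The median of bins with neither mark (both under 0.5 RPKM) was 0.926 and that of bins with H3K4me3 alone was 0.321. On all 19 autosomes the median of H3K27me3-only bins was above that of bivalent bins and below that of all bins, with a range from 0.894 to 0.908. There is 1 methylation file and neighbouring bins are not independent, so no test was made. The file gives no coverage, and the depth behind each value is unknown.

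**Figure D1:**
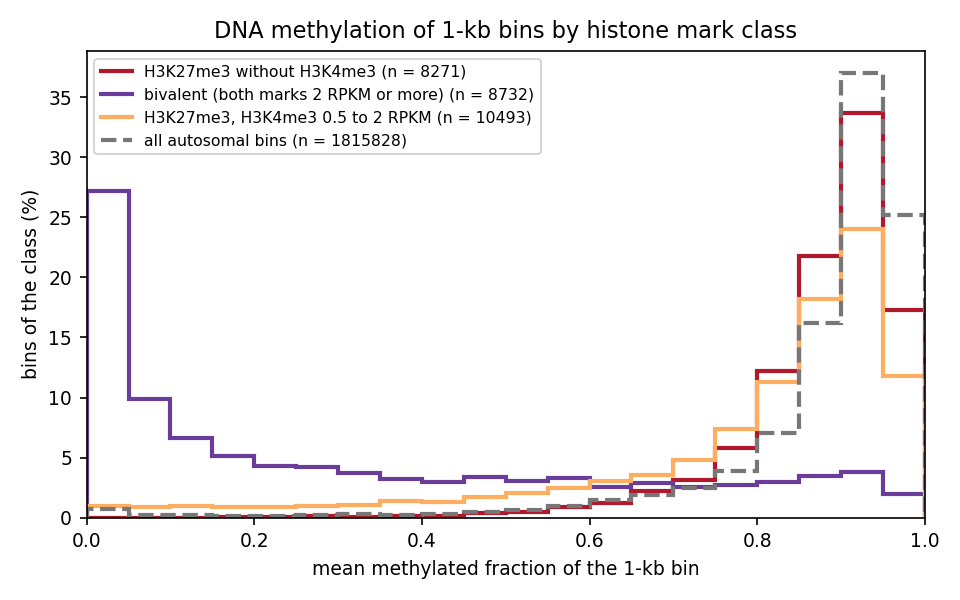
DNA methylation of 1-kb bins in fPSCs P10, as the share of bins of a class (percent, vertical axis) by mean methylated fraction (0 to 1, horizontal axis), 1 line per class. H3K27me3-only bins have their median at 0.901, close to all bins at 0.920, while bivalent bins reach down to the lowest fractions, with a median of 0.213.

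Within bins of like CpG number the difference was smaller where CpG sites were few, and it was larger with at least 30 sites. H3K27me3-only bins had a median of 9 CpG sites per kb (quartiles 6 and 13), against 24 in bivalent bins and 7 in all bins. Their ratio of observed to expected CpG was 0.169, beside 0.395 and 0.159, and their GC content 46.6%, beside 51.6% and 41.7%. With 0 to 4 CpG sites, the median methylation was 0.902 in H3K27me3-only bins and 0.816 in bivalent bins. With 5 to 9 CpG sites, the median methylation was 0.898 in H3K27me3-only bins, 0.694 in bivalent bins and 0.924 in bins with neither mark. With 20 to 29 sites (429 H3K27me3-only bins) it was 0.909, 0.237 and 0.937. In the 71 H3K27me3-only bins with a value and at least 30 sites it was 0.889, while bivalent bins of that kind were at 0.0615 and bins with H3K4me3 alone at 0.0400. Methylation thus stayed near 0.9 over the whole range of CpG number in H3K27me3-only bins and dropped with it in bivalent bins. The class between the limits of H3K4me3 was at 0.872 with 5 to 9 sites, 0.825 with 20 to 29 and 0.511 with at least 30.

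**Figure D2:**
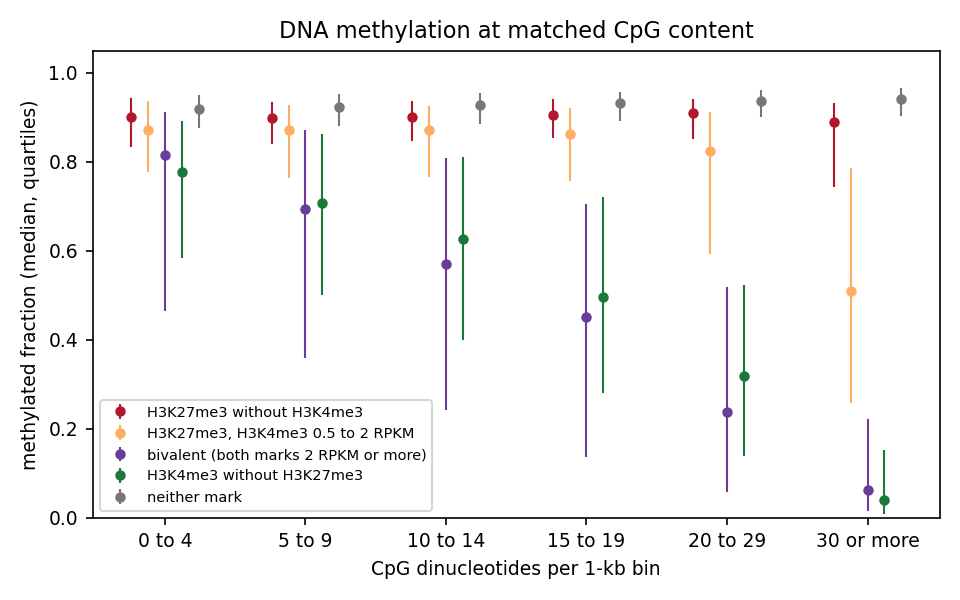
Methylated fraction (vertical axis, 0 to 1) of bins grouped by the number of CpG sites per kb (horizontal axis), with medians as points, quartiles as bars and 1 colour per class of bin. The medians of H3K27me3-only bins run from 0.902 at 0 to 4 sites to 0.889 at 30 or more, bivalent bins from 0.816 to 0.0615.

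Within the H3K27me3-only bins, those with more H3K27me3 had less methylation. The median was 0.905 at 2 to 2.5 RPKM, 0.897 at 3 to 4, 0.882 at 4 to 5 and 0.837 at 5 or more. By reads of H3K4me3 it moved less, from 0.905 at 0 reads to 0.898 at 4 reads. Windows of 100 bp were compared as well. Of 95930 windows 53.2% had no methylation value, and 79.9% of those without a value hold no CpG. Among windows with a value 79.3% were over 0.8 and 1.75% under 0.2, and their mean H3K27me3 was 2.66 and 2.63 RPKM (medians 2.58 and 1.93). The 18.9% between 0.2 and 0.8 had the highest mean, 2.75 RPKM, with a median of 2.58.

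All 8 bins under 0.2 lie within 2 kb of a bivalent bin. By their H3K27me3 they are the Hoxb3 and Wars2 bins above, a bin 0.603 kb from the start of Tcfap2d (AP-2 delta, a transcription factor; chr1:19092001-19093000, methylation 0.05), a bin 53.3 kb from the start of Rhcg, an ammonium transporter (chr7:86686001-86687000, 0.197), an exon of Tbx18 (chr9:87622001-87623000, 0.187), an intron of Slc6a5, the neuronal glycine transporter (chr7:57168001-57169000, 0.130), a second bin near Rhcg (chr7:86697001-86698000, 0.183) and an exon of Nkx2-1, the factor of lung, thyroid and forebrain (chr12:57635001-57636000, 0.0188). The Nkx2-1 bin stands apart from the others by its 77 CpG sites, while the other 7 hold from 6 to 15. H3K4me3 in the Nkx2-1, Wars2, Tcfap2d and Hoxb3 bins was 4 reads, the most the rule allows.

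Most H3K27me3-only bins had no other H3K27me3-only bin beside them, and most held no start site. They formed 7506 runs, of which 5993 were 1 kb long (62.5% of the bins) and 1121 were 2 kb long. The longest run, of 9 kb (chr4:129955001-129964000), holds a start of Serinc2, which encodes a serine incorporator, and lies mostly upstream of it. Its mean was 2.55 RPKM of H3K27me3, 0.221 of H3K4me3 and 0.865 methylation over 6 bins, and it lies 21 kb from the nearest bivalent bin. A run of 7 kb lies between genes near Ptpn11, the phosphatase SHP2 (chr5:121643001-121650000), with a mean methylation of 0.828. It is 393 kb away from any bivalent bin. There were 10 runs of 6 kb. They overlap Trp73, Atoh8, Grb10 and Hpcal4 or lie near Rhcg (2 runs), Gm17649, Zfp821, Tcf21 and Ttll11, with mean methylation from 0.864 to 0.924. Of the 19186 neighbouring bins, 21.8% were H3K27me3-only themselves, 18.9% had H3K27me3 with H3K4me3 between the limits, 3.95% were bivalent and 1.49% had neither mark. The largest part, 53.8%, fell outside all classes used here. A run ends where a neighbour crosses the limit of either mark, so its length is not the extent of H3K27me3. In the mean profile below, H3K27me3 at 10 kb downstream was still 1.35 RPKM, above the mean over all assembled bins.

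Protein-coding start sites were about as frequent in these bins as over the genome. They were in 116 bins (1.21%), against 1.24% of all bins and 13.3% of bivalent bins. The rule leaves out bins with H3K4me3, and 26.9% of bins with H3K4me3 alone held a start site. A share below that of bivalent bins therefore partly follows from the choice. Exons held 10.3% of the H3K27me3-only bins (8.05% of all), introns 27.4% (31%) and intergenic sequence 61.1% (59.7%). The bins were nevertheless near genes, with a median of 7 kb to the closest start site against 54 kb for all bins, and 60% lay within 10 kb of one (18.8% of all, 76.6% of bivalent bins). At start sites the median methylation was 0.882, against 0.101 in bivalent bins there. In exons it was 0.910 against 0.152, in introns 0.902 against 0.310 and between genes 0.900 against 0.268. By chromosome the bins were densest on 11 (8.41 per Mb) and sparsest on 14 (1.66 per Mb). At least 1 bin fell in the body of 1892 of 21418 autosomal protein-coding genes (8.83%).

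A bivalent bin lay within 5 kb of 3790 H3K27me3-only bins (39.5%, against 1.99% of all bins), and 2733 (28.5%, against 86.8%) were over 50 kb from one. Of the bins with H3K4me3 between the limits, 58.5% had a bivalent bin within 5 kb and 22.1% were over 50 kb from one. All 3 classes share the H3K27me3 limit, so closeness partly follows from it. The H3K27me3-only bins near a bivalent bin had the higher H3K27me3, with a median of 2.71 RPKM against 2.32 in those over 50 kb away. Their median methylation was 0.897 and 0.905, with the same median of 9 CpG sites. Under 0.5 were 59 of 3319 near bins (1.78%) and 12 of 2329 far bins (0.515%). Right beside a bivalent bin, at 1 kb, the median was still 0.891.

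Both marks and methylation changed within a few kb around the bins. In the mean profile H3K27me3 went from 2.66 RPKM in the bin to 1.79 at 3 kb and 1.35 at 10 kb downstream on the plus strand, and H3K4me3 from 0.273 to 1.09 and 0.799. Mean methylation was 0.875 in the bin, 0.740 at 3 kb and 0.797 at 10 kb, and the mean number of CpG sites 9.94, 16.7 and 13.4. Methylation was thus higher in the bins than to both sides, where CpG sites were more frequent. For bins within 5 kb of a bivalent bin the mean methylation at 3 kb was 0.625, and for those over 50 kb away it was 0.798. The bins themselves are chosen for high H3K27me3 and low H3K4me3. A fall of H3K27me3 and a rise of H3K4me3 to both sides therefore follow from the rule. Methylation did not enter the rule, but it was lower in the classes with more H3K4me3, so its profile is a description too.

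**Figure D3:**
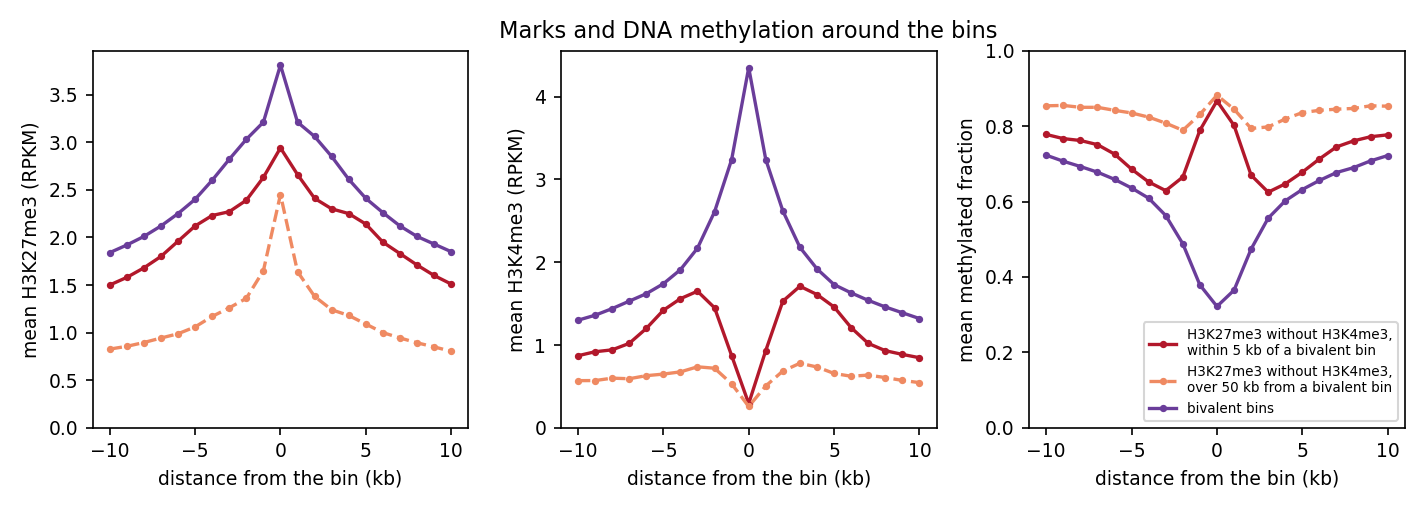
Mean H3K27me3 and H3K4me3 (RPKM) and mean methylated fraction (vertical axes) by distance from the bin (kb, horizontal axis), for H3K27me3-only bins within 5 kb of a bivalent bin, those over 50 kb from one, and bivalent bins. Methylation of the near H3K27me3-only bins is 0.867 in the bin itself and 0.625 at 3 kb, whereas bivalent bins have their lowest value in the bin (0.322).

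Of the 6 strongest bins, 5 lay in genes of developmental transcription factors, with both bins of Hoxc13 counted. The last of the 6, near Gm5607, had as many reads (110) as a bin in an exon of Hapln2. This order uses H3K27me3, which also chose the bins, and the share of such genes over all bins was not counted. Of the 114 bins with H3K27me3 of 5 RPKM or more (1.19%), 96 (84.2%) had a bivalent bin within 5 kb and 7 lay in a Hox cluster. The 97 with a methylation value had a median of 0.837, with 12 under 0.5 and 62 over 0.8. The highest was in an intron of Gata4, a factor of heart and endoderm (chr14:63872001-63873000), with 8.06 RPKM (125 reads, interval 6.70 to 9.59) and a methylation of 0.587 over 3 windows. An exon of Hoxd3 (chr2:74581001-74582000) followed with 7.93 RPKM, with values in only 2 windows. An intron of Hoxc13 (chr15:102755001-102756000) had 7.74 RPKM and a methylation of 0.468, and an exon of Hoxc13 nearer to the start of Hoxc12 had 7.16 RPKM and 0.630. These were intermediate levels, unlike the Pitx3 and Gm5607 bins printed above, which were close to the median of all bins.

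Hox clusters, arrays of homeobox genes that pattern the body axis, were covered by H3K27me3 and held fewer of these bins than of bivalent bins. Hoxa had 1 of 106 bins, Hoxc 3 of 117, Hoxd 3 of 98 and Hoxb 22 of 175, while bivalent bins numbered 66, 74, 61 and 81. Over all assembled bins the share of H3K27me3-only bins was 0.401%, lower than in each of the clusters. In Hoxb the median methylation of the H3K27me3-only bins was 0.845 (0.123 to 0.952 over 20 bins with a value) and that of the bivalent bins 0.0716. The bins with H3K4me3 between the limits had 0.379 in Hoxb and from 0.226 to 0.279 in the other clusters.

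Of all protein-coding genes 12.0% (2564 of 21410) had such a bin within 5 kb of a start site. The share was higher in each list of ligands, transcription factors and ion channels examined. It was also higher for receptors of amines and peptides and of GABA and glutamate, and for the short lists of PRC2, PRC1 and DNA methylation enzymes. The lists were chosen with earlier results of these data known, and their counts are descriptions. Among ligands the share was 63.2% for Wnt genes (12 of 19), 30% for Fgf genes (6 of 20) and 26.3% for BMP and GDF genes (5 of 19). Among transcription factors it was 60% for Gata (3 of 5), 38.8% for the homeobox list of Pax, Nkx, Lhx, Dlx, Irx and sine oculis genes (19 of 49), 37.9% for neural and mesodermal bHLH factors (11 of 29), 30% for Fox (12 of 40), 28.6% for Tbx (4 of 14), 27.8% for Sox (5 of 18) and 25% for Hox genes (10 of 40). Channels and these receptors followed with 38.3% of potassium channels (36 of 94), 33.3% of calcium and sodium channels (13 of 39), 39.1% of receptors for amines and peptides (18 of 46) and 17.9% of GABA and glutamate receptors (7 of 39). Lower shares were counted for olfactory receptors (11 of 1106, 0.995%), vomeronasal receptors (0 of 319), protocadherins (1 of 34, 2.94%), keratins (3 of 46, 6.52%) and germline genes (2 of 34, 5.88%). For the Polycomb machinery itself the share was above that of all genes in PRC2 (2 of 11, 18.2%) and PRC1 (5 of 20, 25%). It was also above it for the DNA methylation enzymes (2 of 8, 25%), and it was 0 of 1 H3K27 demethylase.

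Examples from these lists, taken from the bins with the most H3K27me3 in each list, differed in methylation. Some of the strongest were at intermediate or low levels. Near Neurod2 the bin had 6.96 RPKM and a methylation of 0.583, near Hoxb9 6.58 RPKM and 0.409, near Hoxd8 6.38 RPKM and 0.296, and near Nkx1-1 5.67 RPKM and 0.557. The examples that follow had 0.700 or more. Near Wnt9a the bin had 4.84 RPKM and a methylation of 0.700, near Wnt10b 4.77 RPKM and 0.773, and near Wnt4 4.51 RPKM and 0.897. The Gata5 start had 4 such bins within 5 kb, the strongest with 5.35 RPKM and 0.853. Olig1, a factor of oligodendrocytes and motor neurons, had 5 such bins and 5.09 RPKM with 0.944. Near Grin1, a subunit of the NMDA receptor, a bin had 5.74 RPKM and 0.871, and the gene had a mean of 0.440 FPKM in fPSCs and 28.8 in mESCs. Such a bin was also found near expressed genes. One bin 3 kb from a start of Dnmt3a, the de novo DNA methyltransferase, had 3.29 RPKM and 0.754, and Dnmt3a was at a mean of 28.6 FPKM in fPSCs. Near Cbx2, a PRC1 subunit that reads H3K27me3, a bin had 4.96 RPKM and 0.970 beside a mean of 19.3 FPKM, and near Eomes, a T-box factor of mesendoderm, 2.77 RPKM and 0.932 beside 30.6 FPKM. These FPKM describe the cells of the RNA-seq, which need not be those of the ChIP-seq.

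The 116 bins with a start site belong to 117 protein-coding genes. The start-site bins of these genes had a median methylation of 0.887, and 80 of the 105 with a value were over 0.8. Another start site of the same gene had H3K4me3 of at least 2 RPKM in 49 genes, so that expression from the marked start cannot be told apart from that of another start. Members of the gene lists among the 117 were Adrb3 and Sstr2, receptors for adrenaline and somatostatin, the potassium channels Kcnk9 and Kcnj9, and the factors Nkx6-3 and Foxs1. The FPKM table holds 100 of the 117 genes, and 54 of these were below 1 FPKM in all 19 libraries.

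Fewer of the 100 genes reached 1 FPKM in fPSCs than in mESCs or EpiSCs. The number was 11 to 15 in the 7 long-term fPSC libraries, 27 and 31 in mESCs, 18 and 19 in EpiLCs and 27 in both EpiSC libraries. It was 12 in fPSCs at P1, 14 and 18 in fPSCs derived from E5.5 and E6.5 epiblasts, and 19, 14 and 23 in Epiblastoids on days 2, 3 and 4. The ranges of fPSCs and of mESCs, EpiLCs or EpiSCs did not overlap. The starts were chosen by high H3K27me3 and low H3K4me3 in fPSCs, a choice that favours genes silent in fPSCs. A lower share in fPSCs therefore partly follows from the choice and is a description only. The same holds for the counts of genes lower in fPSCs in the contrasts below. In the whole table, 10677 and 10907 genes reached 1 FPKM in mESCs, 10553 and 10639 in EpiLCs, 10862 and 10933 in EpiSCs and 10034 to 10875 in the long-term fPSC libraries. For the 3472 genes with a start in a bin with neither mark the shares were 14.1 to 16.3% in fPSCs, 17.9 to 18.4% in mESCs, 16.2 to 16.4% in EpiLCs and 16.7 to 16.8% in EpiSCs, so that fPSCs were also lower than mESCs and EpiSCs there, without overlap. In the 53 listed genes without another start at H3K4me3 of 2 RPKM, 0 to 3 reached 1 FPKM in fPSCs, 9 and 10 in mESCs and 6 in each EpiSC library. For the 874 genes with a start in a bivalent bin the shares were 13.8 to 20.1% in fPSCs, 19.7 and 24.6% in mESCs and 30.9 and 31.6% in EpiSCs.

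**Figure D4:**
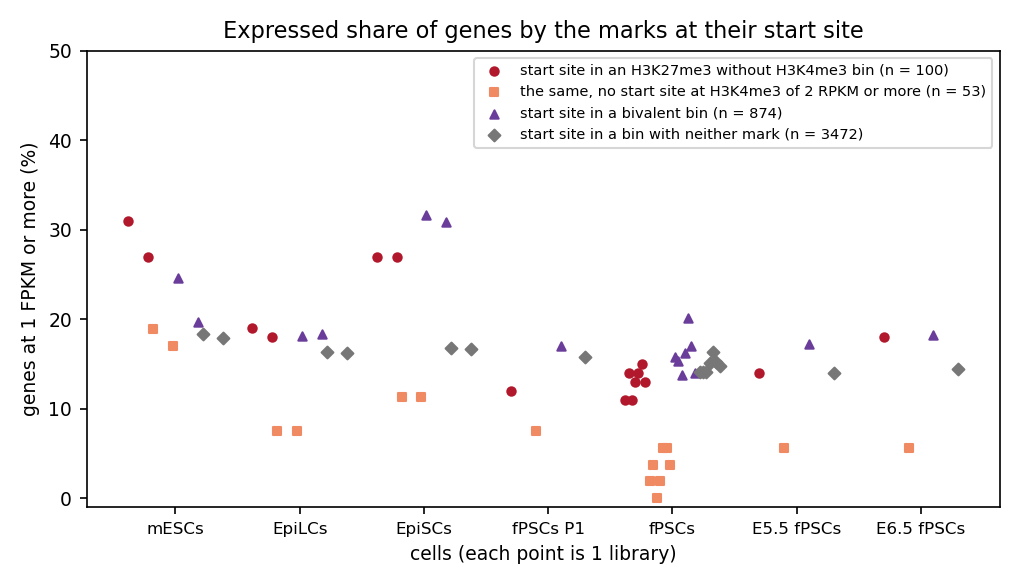
Share of genes at 1 FPKM or more (percent, vertical axis) in each library (points, by group on the horizontal axis, without Epiblastoids), for genes with a start site in an H3K27me3-only bin, in a bivalent bin or in a bin with neither mark. Genes with a start in an H3K27me3-only bin lie between 11 and 15% in the 7 long-term fPSC libraries and at 27 and 31% in mESCs.

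Differences of single genes were tested with limma on log2(FPKM + 1), in 1 fit of mESCs, EpiLCs, EpiSCs and the 7 fPSC libraries over 12513 genes that reached 1 FPKM in 2 or more libraries. Calls needed a fold of 1.5 or more and an adjusted p (Benjamini-Hochberg) below 0.05. The filter kept 44 of the 100 genes and 53.0% of all 23604. A gene that passed it only through the group where it was high had to differ, so the counts are read beside those of all genes and not as support. The contrasts share the fPSC, mESC or EpiSC libraries. The labels do not say that libraries of a group came from separate cultures, and p-values then measure only the spread between these libraries.

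Against mESCs, 23 of the genes were lower and 6 higher in fPSCs, while 23.0% of all tested genes were lower and 17.3% higher. The median log2 difference was -0.755 for the 44 genes and -0.0380 for all. Without mESCs replicate 1 the counts were 12 lower and 4 higher, and without replicate 2 they were 11 and 3, where the genes lower among all tested went from 2883 to 1894 and 1980. Of the 23 lower genes, 14 have another start with H3K4me3. Nr5a2, a nuclear receptor of naive pluripotency, had 28.8 and 24.6 FPKM in mESCs, 0.206 and 0.109 in EpiLCs, 0.0515 and 0.0346 in EpiSCs and 0, 0.0114 and 0.0540 (lowest, median and highest) in fPSCs. It was high in mESCs and near 0 in every other library, and fell by 4.76 on the log2 scale (SE 0.09, limma adjusted p = 5.72e-13). The bin at one of its 2 starts had 2.45 RPKM of H3K27me3, while the other start has H3K4me3, and had a methylation of 0.8. Pgc, which encodes the pepsinogen progastricsin and has both of its starts in an H3K27me3-only bin (3.09 RPKM, methylation 0.940), was at 12.0 and 8.97 FPKM in mESCs and listed at 0 in 6 of the 7 fPSC libraries. It fell by 3.51 (SE 0.10, limma adjusted p = 2.15e-11). Fam81a and Aifm2, a suppressor of ferroptosis, fell by 2.72 and 2.37.

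The largest rise was that of Igf2, an imprinted growth factor. It had 0.138 and 0 FPKM in mESCs and 1.21, 4.71 and 6.79 (lowest, median and highest) in fPSCs, a log2 difference of 2.08 (SE 0.43, limma adjusted p = 0.00169). Its means were 5.92 FPKM in the first and 2.53 in the second deposit batch, both above mESCs. One of its 8 starts lies in a bin with 4.12 RPKM of H3K27me3, and another start has H3K4me3. Dusp3, a phosphatase of MAP kinases, was at 1.5 and 0.889 FPKM in mESCs and at 3.25, 5.84 and 6.47 in fPSCs, a rise of 1.54 (SE 0.22, limma adjusted p = 7.59e-05). The bin at one of its starts had 3.42 RPKM of H3K27me3, no read of H3K4me3 and a methylation of 0.946, while its other start has H3K4me3. Phyhip and Fgfr2, a receptor of fibroblast growth factors, were higher by 1.03 and 0.86 (limma adjusted p = 0.00916 and 0.0162). Phyhip had 0.676 without mESCs replicate 2 and Fgfr2 0.881 and 0.838 without replicate 1 or 2, and these values were no longer called.

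Against EpiLCs, 7 of the genes were lower and 1 higher in fPSCs, beside 8.15% and 5.66% of all tested genes. The median log2 difference was -0.170, against 0.0126 for all. Asb8, an adaptor of ubiquitin ligases, had 1.55 and 2.11 FPKM in EpiLCs and 4.63, 6.11 and 9.32 in fPSCs, and rose by 1.37 (SE 0.21, limma adjusted p = 7.51e-04). Sema4a, a semaphorin, fell from 2.49 and 3.43 FPKM to between 0.0514 and 0.633, a log2 difference of -1.64 (SE 0.20, limma adjusted p = 9.53e-05). Frs3, an adaptor of FGF receptors, fell by 1.35, and Ctcfl, the germline paralogue of CTCF, by 1.13 from 1.25 and 1.15 FPKM. Smtnl1 fell by 0.99. Sema4a, Ctcfl and Smtnl1 have no start at H3K4me3 of 2 RPKM.

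Against EpiSCs, 17 of the genes were lower and 0 higher in fPSCs by limma, beside 19.0% and 13.3% of all tested genes, and 1 was higher at an unadjusted p under 0.05. With a pseudocount of 0.1, or with fPSCs of the second batch only, 1 was higher. The median log2 difference was -0.470, against 0.0168 for all. Pmp22, a myelin protein, had 66.2 and 70.8 FPKM in EpiSCs and 0.0791, 0.272 and 0.865 in fPSCs (log2 difference -5.68, SE 0.23, limma adjusted p = 1.34e-09). Gsn, the actin-severing gelsolin, had 47.0 and 69.8 FPKM and 0.0295, 0.183 and 0.941, and fell by 5.53. Igf2 had 35.2 and 45.1 FPKM in EpiSCs and fell by 3.18 (SE 0.43, limma adjusted p = 1.04e-04), and Dpysl4, a protein of axon growth, by 2.63. All 4 were higher in both EpiSC libraries than in any mESC, EpiLC or fPSC library. In the 1 library labelled Epiblastoids at day 4, from irregular colonies, Pmp22 was at 30.9 FPKM, Igf2 at 13.5, Gsn at 1.98 and Dpysl4 at 0.785. In fPSCs derived from E6.5 epiblasts the values were 1.62, 12.1, 0.216 and 0.185 FPKM. EpiSCs grew on fibroblasts, and 12 fibroblast genes such as Col1a1 and Acta2 summed to 667 and 788 FPKM there, with 10 of the 12 at 1 FPKM or more in every library. The sum was 3.66 to 6.70 in mESCs, 13.5 to 18.3 in EpiLCs and 4.35 to 9.57 in fPSCs, and no gene of the list was at 0 in every fPSC library. It was 20.5 in Epiblastoids at day 4 and 5.20 in E6.5 fPSCs. In bulk RNA, cells of another type cannot be told apart from expression in the cells named, and the part of the feeder cells in these differences was not tested. Without EpiSCs replicate 1 or 2 the count of lower genes was 9 or 10, with 1586 and 1176 among all tested in place of 2377.

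Between EpiSCs and mESCs, neither of which was used for the marks, 18 of the genes were higher and 16 lower in EpiSCs, beside 23.1% and 24.7% of all tested genes. The medians were -0.113 and -0.0857. Pmp22 (6.08), Igf2 (5.26), Gsn (4.10) and Dpysl4 (2.77) rose most on the log2 scale, with limma adjusted p from 3.67e-09 to 4.95e-06, and the fibroblast sums given above differ in the same direction. Nr5a2, Fam81a and Aifm2 fell by 4.73, 2.99 and 2.04. Pgc was listed at 0 in both EpiSC libraries. The count of higher genes was 9 without either EpiSC library, and that of lower genes 7 and 6 without mESCs replicate 1 and 2.

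**Figure D5:**
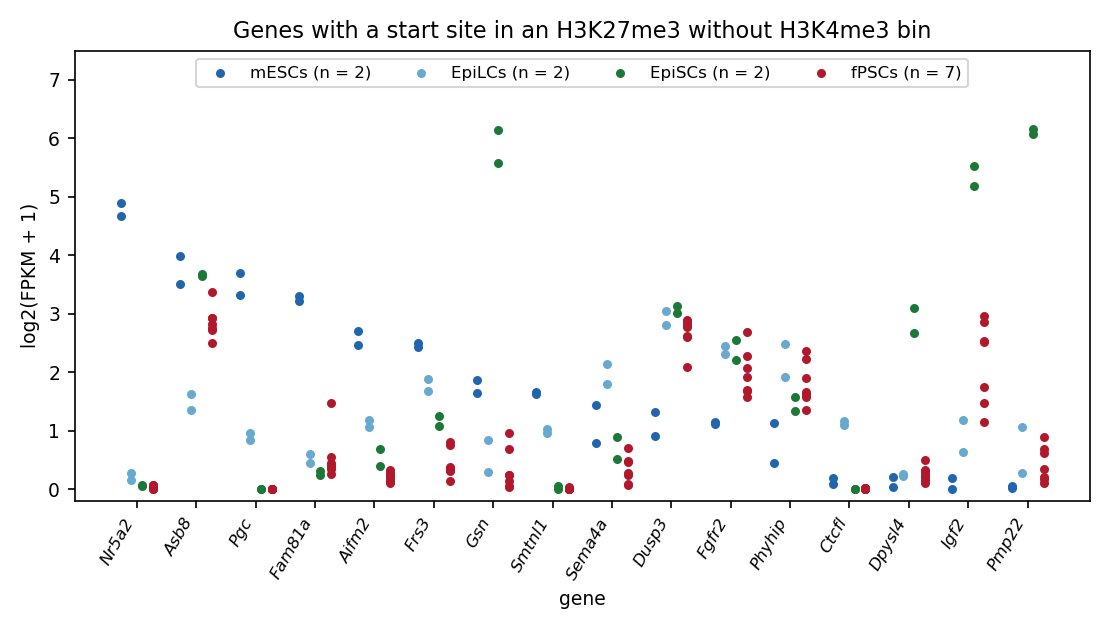
Levels (log2(FPKM + 1), vertical axis) of the genes named in the contrasts (horizontal axis), which have a start site in an H3K27me3-only bin, in each library of mESCs, EpiLCs, EpiSCs and long-term fPSCs (points, 1 colour per group). Nr5a2 is highest in mESCs (28.8 and 24.6 FPKM), Pmp22 and Gsn in EpiSCs (66.2 and 70.8, 47.0 and 69.8), and Dusp3 in fPSCs lies above mESCs (3.25 FPKM or more against 1.5 or less).

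A few of these genes were expressed in fPSCs. The highest means over the 7 libraries were those of Schip1 (13.3 FPKM, SD 6.04), an ankyrin-binding protein, Asb8 (6.38, SD 1.46), Dusp3 (5.43, SD 1.10), Igf2 (3.98, SD 2.22), the lysosomal Cln3 (3.50, SD 1.47) and Espn (3.42, SD 2.52), which bundles actin in stereocilia. Fgfr2 (3.11), Phyhip (2.62), the parathyroid hormone receptor Pth1r (2.33), Stmn3 (1.76), Rasa4 (1.42) and Ccdc106 (1.24) followed. Of these 12, all but Stmn3 have another start at H3K4me3 of 2 RPKM or more. The Stmn3 bin had 2.90 RPKM of H3K27me3 and a methylation of 0.976, and the gene, a regulator of microtubules, ranged from 0.586 to 3.42 FPKM in fPSCs. The SDs of Espn and Pth1r (4.14) are near or above their means, and neighbours in this order overlap in their ranges.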

How the data were processed

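The authors deposited ChIP-seq values as RPKM in bins of 100 bp, after Trim Galore, Bowtie2 2.2.2 on mm9, removal of duplicates and multiply mapped reads, and by their methods integration of replicates. STAR ChIP-seq, a low-input method with MNase digestion, was used. For bisulfite data the authors deposited 1 methylated fraction per 100-bp window (BS-Seeker2, mm9), without coverage. RNA-seq was deposited by the authors as FPKM (cutadapt 1.11, TopHat2 2.1.1 on mouse cDNA, Cufflinks 2.1.1), which leaves its depth unknown. 100-bp values were averaged over 1-kb bins, with unlisted bins as 0, so that unmappable sequence counts as unmarked. Reads were recovered from the step of 1.244 (H3K4me3) and 0.6440 RPKM (H3K27me3) per read, with 100.0% and 99.99% of values whole within 0.02. Genes and sequence came from GENCODE M1 on NCBIM37, matched to the FPKM table by symbol. Repeats were not annotated.

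limma 3.58.1 (R 4.3.3; trend, not robust) had 9 residual degrees of freedom. In simulated fPSCs and mESCs with 12513 genes it recovered 47 of 100 genes changed by 1 on the log2 scale and 90 of 100 changed by 2, with 5 false calls. The simulated means were raised by 2 on the log2 scale, so recovery for genes near 0 FPKM was not measured. Genes named are the 12 with the highest fPSC mean, the 4 largest non-overlapping rises and falls per contrast, those at the 10 longest runs (ties included) and the 6 strongest bins, and list examples by H3K27me3. The bins, gene lists and marker lists were chosen with earlier results of these data known. Genes at the bins under 0.2, the 6 list genes with a start in such a bin, and the Dnmt3a and Eomes examples were picked after their values were seen. So were the Neurod2, Hoxb9, Hoxd8 and Nkx1-1 examples. Other steps used Python 3.11.15, pandas 2.3.3 and scipy 1.17.1. Alternatives were other limits of both marks and of distance, window minimum, pseudocount, filter, scaling, deposit batch, replicate block and leaving out libraries. The single-cell tables were not used here. One item that the naming rule selects is not reported here.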

Additional observations from a re-analysis of the deposited data

Results flagged for a closer look

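In 23 named genes the 7 long-term fPSC libraries were searched for a library far from the others. Chance flags about 1 in 20 groups, and 6 of the 23 genes had such a library, each time the highest. Asb8 was at 9.32 FPKM in CMT P10, with 6.62 in the next library. The library of 46C P24 stood apart in 3 genes, with 8.66 FPKM of Espn (next 3.82), 1.77 of Fam81a (next 0.457) and 11.7 of Pth1r (next 1.37). Pgc was at 0.00211 FPKM in CMT P20 and listed at 0 in the others. Smtnl1 was at 0.0237 FPKM in BVSC P14, with 0.00229 in the next library. For Pgc and Smtnl1 these values are close to 0 in all 7 libraries.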

How the results depend on the processing

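The median methylation of H3K27me3-only bins was between 0.890 and 0.903 under all alternatives run on it. The share under 0.2 was 0.231% with 1 window, 0.285% with H3K27me3 of at least 3 RPKM and 0.0220% with H3K4me3 under 0.25 RPKM. The share near a bivalent bin was 52.7% and 35.7% under the same limits of the marks, 56.0% with bivalent bins from 1 RPKM of H3K4me3 and 18.6% within 2 kb. That of start sites was 0.998% with H3K4me3 under 0.25 RPKM. With a pseudocount of 0.1, the genes higher in fPSCs were 11 against mESCs, 4 against EpiLCs and 1 against EpiSCs. With genes starting within 1 kb of a bin, more genes enter, and the higher and lower genes were 25 and 89 against mESCs, 7 and 39 against EpiLCs, 5 and 90 against EpiSCs, and 81 and 54 for EpiSCs against mESCs. With fPSCs of the first batch only, 4 were higher than in EpiLCs, and with the second only 1 was higher than in EpiSCs. Leaving out 1 library gave 3 to 4 higher and 11 to 12 lower against mESCs, 1 higher and 6 to 7 lower against EpiLCs, 0 higher and 9 to 10 lower against EpiSCs, and 9 to 16 higher and 6 to 16 lower for EpiSCs against mESCs. A group left with 1 library is assumed to vary like the others. Of 514 values of single genes under alternatives, 473 kept direction and call, 13 became called, 17 lost the call and 11 reversed. None of those 11 was called before or after. On the log2 scale, Espn against mESCs went from -0.03 to 0.00482 with upper-quartile scaling, 0.167 with the second batch and between -0.343 and 0.289 without 1 mESC library. Against EpiLCs, Schip1 went from 0.26 to -0.178 with the first batch and between -0.246 and 0.775 without 1 EpiLC library, Pth1r from 0.43 to -0.00781 with the first batch, Stmn3 from -0.23 to 0.115 with the second batch and between -0.470 and 0.000366 without 1 EpiLC library, and Rasa4 from 0.11 to between -0.0773 and 0.307 without 1 EpiLC library. Schip1 against EpiSCs went from 0.23 to -0.217 with the first batch, and Asb8 in EpiSCs against mESCs from -0.08 to between -0.316 and 0.155 without 1 library. The cause of these moves was not tested.

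Replicate numbers did not pair the libraries, since the deviations of same-numbered libraries had r of 0.204 for mESCs and EpiLCs, -0.199 for mESCs and EpiSCs and -0.134 for EpiLCs and EpiSCs. With the replicate block the counts were 6 higher and 23 lower against mESCs, 1 and 7 against EpiLCs, 0 and 17 against EpiSCs and 18 and 16 for EpiSCs against mESCs, as without it, and 66 of 66 values of single genes kept their call. Depth limits the marks most near 4 reads of H3K4me3 per bin.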
